A study of Mus musculus with 6 samples.

Results

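The genes described here are those of the receptor side of interleukin-6 (IL-6) family signalling and of its feedback through STAT3: the receptor subunits Il6ra, Il6st, Osmr and Lifr, the kinase Jak1, the transcription factor Stat3 and the STAT3-induced genes Socs3, Socs1, Pim1 and Bcl3. They were taken by gene symbol, from a list drawn up with earlier results of these data known, and the symbols matched 10 of the 52459 genes in the count table. All 10 passed the filter on low counts, which left 17032 genes for testing.

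Cytokines of the IL-6 family bind a specific receptor subunit on the cell surface, which pairs with the shared subunit gp130, the product of Il6st. Janus kinases held at the receptor then phosphorylate STAT3, which enters the nucleus and activates its target genes. In the liver this pathway drives the acute phase response of hepatocytes, and it is studied in regeneration, chronic inflammation and liver cancer. SOCS3 is induced by STAT3 and blocks gp130-bound kinases, so that the pathway limits its own activity.

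RNA-Seq was performed on whole livers of 6 male Alb-Cre/Cas9 F1 mice (strain C57BL6J), 3 per group, each liver from 1 mouse aged 8 months. The sgCtrl group (mice 5.1, 7.1 and 7.2) was given an AAV8 vector with a U6-driven control guide RNA, and the sgPrdx2 group (mice 1.1, 1.3 and 3.2) the same vector with a guide RNA against Prdx2, which encodes the peroxide-reducing enzyme peroxiredoxin 2, in both cases into a vein at 4 to 5 weeks of age. Both groups then received 100 mg/kg of the carcinogen diethylnitrosamine (DEN) 3 weeks later and, from 1 week after that, 6 months of CDAHFD, a diet rich in fat that lacks choline, so that no liver here is free of DEN or of the diet. Cas9 was active where the albumin promoter drives Cre, which is in hepatocytes. By staining of liver sections from this model, the study reports that PRDX2 protein was suppressed in hepatocytes of sgPrdx2 mice. It ascribes the remaining PRDX2-positive islets most likely to cells that the vector did not reach.

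Total counts per liver ranged from 37462102 to 56865293, and the labels name no batch. Levels are given as CPM, the counts of a gene scaled to a common library size, after TMM normalization, a scaling over all genes. The TMM factors were 1.17, 1.12 and 1.12 in the sgCtrl livers and 0.885, 0.951 and 0.805 in the sgPrdx2 livers. They thus did not overlap between the groups. At this scaling, 3 counts corresponded to between 0.0555 and 0.0921 CPM. The targeted gene did not separate the groups. Prdx2 had 109, 117 and 132 CPM in the sgCtrl livers and 99.0, 112 and 149 CPM in the sgPrdx2 livers. Its log2 fold change was 0.01 (SE 0.18, adjusted p = 0.983, edgeR's quasi-likelihood test). An edited gene may still be transcribed at its former level, and whole liver also holds cells that were not edited. These cannot be told apart here, and neither was tested. Across all 17032 genes, 567 passed an adjusted p of 0.05 with edgeR's quasi-likelihood test (3.33%), of which 262 were lower (1.54%) and 305 higher (1.79%) in sgPrdx2 livers. Markers of liver cell types differed between the groups: hepatocyte markers, among them albumin, summed to 83375 to 91417 CPM in sgCtrl and 145447 to 194628 CPM in sgPrdx2 livers, with 6 of 12 called higher, while macrophage markers summed to 4205 to 4911 and 2806 to 3618 CPM, with 3 of 14 called lower. In whole liver, a change in the number of cells of a type and a change in RNA per cell cannot be told apart.

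None of the 10 genes passed the test at an adjusted p of 0.05 with edgeR, beside 3.33% of all genes. At an unadjusted p of 0.05 the count was 4 of 10 (Osmr, Lifr, Socs3 and Il6st), beside 24.9% of all genes, and DESeq2 called 1 of 10 (Osmr), beside 13.4% of the genes it adjusted. Il6st, Osmr and Jak1 were lower in every sgPrdx2 liver than in any sgCtrl liver, Lifr and Socs3 were higher, and the other 5 overlapped between the groups. Of all genes tested, 34.2% did not overlap, 17.5% lower and 16.7% higher in every sgPrdx2 liver. The median log2 fold change of the 10 genes was -0.17, with 7 below 0 and 3 above 0, and that of all genes tested was -0.02. The 10 genes were not tested as a group, and they are described below by their own values.

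**Figure D1:**
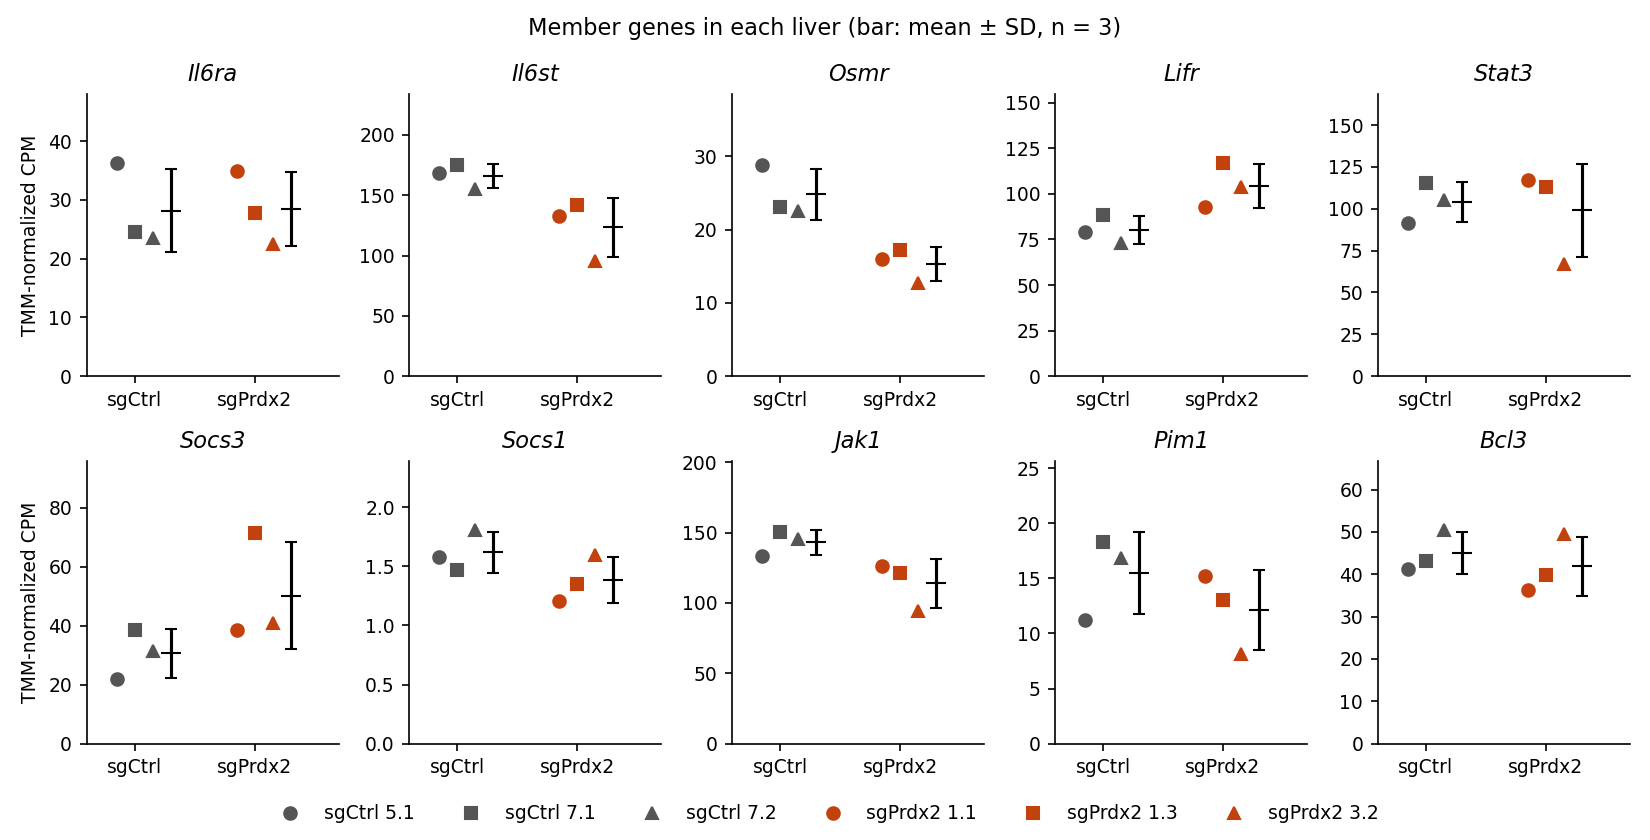
TMM-normalized CPM (linear axes from 0) of the 10 genes in each liver, with grey symbols for the 3 sgCtrl and orange symbols for the 3 sgPrdx2 livers, 1 symbol shape per mouse, and bars for the mean ± SD. Osmr was between 22.6 and 28.9 CPM in sgCtrl and between 12.7 and 17.3 CPM in sgPrdx2 livers, Lifr showed the opposite order, and the groups of Il6ra, Stat3, Socs1, Pim1 and Bcl3 overlapped.

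Osmr, the subunit that binds oncostatin M together with gp130, had the smallest p of the 10. The gene lies at chr15:6813577-6874969 on the minus strand of GRCm38. Its level was 28.9, 23.1 and 22.6 CPM in the sgCtrl livers 5.1, 7.1 and 7.2, and 16.0, 17.3 and 12.7 CPM in the sgPrdx2 livers 1.1, 1.3 and 3.2. The lowest sgCtrl liver was above the highest sgPrdx2 liver, with means of 24.8 ± 3.50 and 15.3 ± 2.35 CPM (SD, n = 3 each). The log2 fold change was -0.70 (SE 0.16, 95% interval -1.07 to -0.32), that is 1.62-fold lower in sgPrdx2 livers, with an adjusted p of 0.0587 that missed the threshold, and it ranked 802nd by p among all genes. Osmr passed with DESeq2 (adjusted p = 0.00683) and with edgeR when no filter on low counts was used (adjusted p = 0.0346, beside 3.94% of all genes called that way). The log2 fold change stayed between -0.77 and -0.57 when each liver was left out in turn.

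The genes with profiles over the 6 livers most like that of Osmr were Wls, Meis2 and Sept8, at root mean square differences of 0.0448, 0.0450 and 0.0471 in log2 CPM centred on each gene's mean. Sept8, which encodes a septin of the cytoskeleton, fell to a log2 fold change of -0.70 (adjusted p = 0.0491, edgeR's quasi-likelihood test). Wls, the carrier that brings Wnt proteins to the cell surface, had -0.69 (adjusted p = 0.0625), and Meis2, a homeobox transcription factor, had -0.67 (adjusted p = 0.0750). These 3 were picked for their likeness to Osmr, so that their values describe the pattern and do not test it.

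Lifr, the subunit that binds leukemia inhibitory factor and also pairs with gp130, lies on the same chromosome at chr15:7090614-7197489 on the plus strand. It had 79.1, 88.3 and 73.0 CPM in sgCtrl livers and 92.8, 117 and 104 CPM in sgPrdx2 livers. The groups did not overlap, and the sgPrdx2 livers were the higher ones, with means of 80.1 ± 7.72 and 105 ± 12.1 CPM (SD, n = 3 each). On the log2 scale the fold change was 0.38 (SE 0.14, 95% interval 0.05 to 0.72), with an adjusted p of 0.156. It was 0.40 with RLE and 0.37 with upper-quartile normalization. It was 0.01 with libraries scaled to 6 housekeeping genes (Atp5b, Bag6, Cox8a, Hint1, Hnrnpa2b1 and Ndufa2). That scaling moved the median of all genes from -0.02 to -0.38. Whether the 6 housekeeping genes themselves differed between the groups was not examined.

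Il6st, which encodes gp130 and serves every receptor described here, lies at chr13:112464070-112510086 on the plus strand. Its level was 168, 175 and 155 CPM in sgCtrl livers and 133, 142 and 95.4 CPM in sgPrdx2 livers. All 3 sgPrdx2 livers were below all 3 sgCtrl livers, with liver 3.2 lowest, and the means were 166 ± 10 and 123 ± 24.6 CPM (SD, n = 3 each). The log2 fold change was -0.43 (SE 0.17, 95% interval -0.83 to -0.03, adjusted p = 0.177), and it was -0.26 without liver 3.2.

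Il6ra, the IL-6-binding subunit, lies at chr3:89864059-89913196 on the minus strand. It had 36.3, 24.6 and 23.6 CPM in sgCtrl and 35.0, 27.7 and 22.5 CPM in sgPrdx2 livers. In each group a single liver, sgCtrl 5.1 and sgPrdx2 1.1, stood above the other two, and the ranges of the groups almost coincided. The log2 fold change was 0.02 (SE 0.22, 95% interval -0.49 to 0.52, adjusted p = 0.973), an interval that reaches from 0.712 to 1.43 times the sgCtrl level. Its sign turned with the housekeeping scaling and without liver 7.1 (-0.07), 7.2 (-0.10) or 1.1 (-0.16).

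The estimates of the 4 receptor subunits were of either sign, and none was called by edgeR. Ratios within a liver, which do not depend on how the libraries are scaled, gave the relation between them. Reads on Osmr per read on Lifr numbered 0.365, 0.262 and 0.309 in sgCtrl livers and 0.172, 0.148 and 0.123 in sgPrdx2 livers. The log2 of this ratio was -1.69 ± 0.24 and -2.77 ± 0.24 (SD, n = 3 each), a difference of -1.08, and the groups did not overlap (exact permutation test, two-sided, p = 0.1, adjusted p = 0.267 over 8 ratios). With 3 livers against 3, no ratio can have a p below 0.1 in this test.

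Reads on Lifr per read on Il6st numbered 0.470, 0.504 and 0.469 in sgCtrl livers and 0.698, 0.826 and 1.09 in sgPrdx2 livers. In liver 3.2 Lifr had more reads than Il6st, which was not so in the other 5 livers. The difference in log2 ratio was 0.83 with no overlap (exact permutation p = 0.1, adjusted p = 0.267). The groups overlapped for Osmr over Il6st (difference -0.25) and for Il6ra over Il6st (0.47), each with an exact permutation p of 0.2 and an adjusted p of 0.267.

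**Figure D2:**
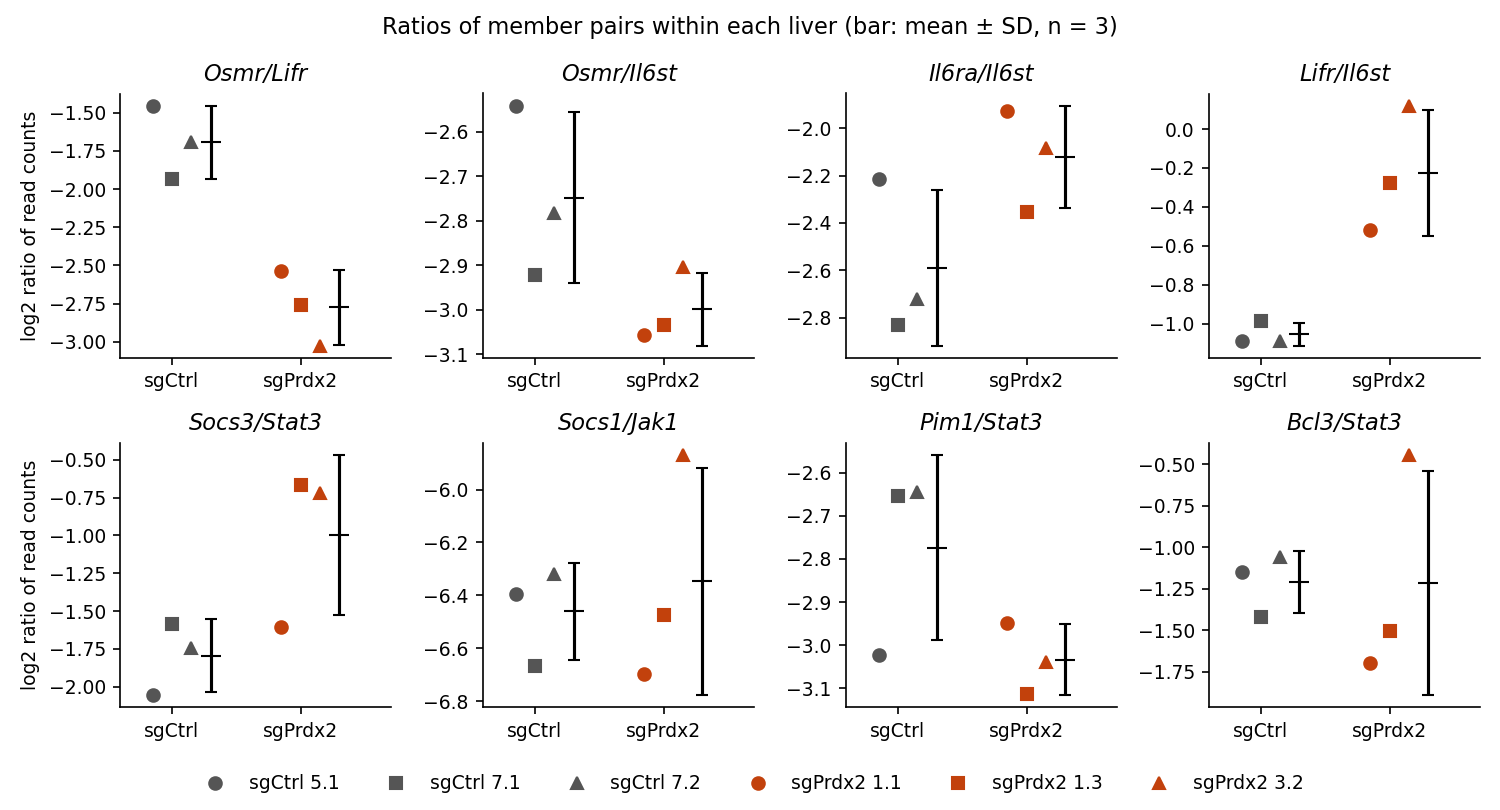
Log2 ratio of the read counts of 8 gene pairs within each liver (linear axes that do not start at 0 and differ between panels), with grey symbols for sgCtrl, orange symbols for sgPrdx2 livers and bars for the mean ± SD of 3. Osmr over Lifr was lower and Lifr over Il6st higher in all 3 sgPrdx2 livers, and the groups of the other 6 ratios overlapped.

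Jak1, a kinase that gp130 binds and that phosphorylates STAT3, lies at chr4:101152367-101265282 on the minus strand. Its level was 134, 150 and 145 CPM in sgCtrl and 127, 121 and 94.2 CPM in sgPrdx2 livers. The groups did not overlap, although the gap between them was small and liver 3.2 was again lowest. The groups differed by a log2 fold change of -0.33 (SE 0.15, 95% interval -0.68 to 0.02, adjusted p = 0.228), and -0.20 without liver 3.2.

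Stat3 itself, at chr11:100885098-100939540 on the minus strand, had 91.6, 115 and 105 CPM in sgCtrl and 117, 113 and 67.3 CPM in sgPrdx2 livers. The highest and the lowest of the 6 livers were both sgPrdx2 livers, 1.1 and 3.2. This gave a log2 fold change of -0.07 (SE 0.22, 95% interval -0.58 to 0.44, adjusted p = 0.866), and it was 0.16 without liver 3.2 and 0.01 without liver 7.1, so that no direction can be given. RNA levels of Stat3 and Jak1 do not measure phosphorylated STAT3, which was not analysed here. From Western blots of livers of this model, the study reports STAT3 signalling as suppressed in sgPrdx2 mice. From a gene set analysis of its RNA-Seq data, it also reports IL-6/STAT3 signalling as suppressed.

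Liver 3.2 was the lowest of the 6 livers for 6 of the 10 genes (Il6ra, Il6st, Osmr, Stat3, Jak1 and Pim1) and the highest for 0. The share of all genes tested that were lowest in liver 3.2 was not counted. The count therefore cannot be read as particular to these 10 genes. Liver 3.2 also had the highest summed level of hepatocyte markers (194628 CPM), a sum made up mostly of Alb and the apolipoproteins. Among these markers, liver 3.2 was the highest of the 6 livers for Alb, Apoa1, Apoa2, Ttr, Serpina1a and Cyp2e1. It was the lowest sgPrdx2 liver for Apob (3586 CPM), Cps1 (1206 CPM), Hnf4a (433 CPM) and Pck1 (1066 CPM). For Ass1 and Tat it lay between the other sgPrdx2 livers. The part of these differences in the members' values was not tested. Without liver 3.2 the median log2 fold change of the 10 genes was -0.16, against -0.17 with all livers.

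Socs3, the feedback inhibitor that STAT3 induces, is a small gene at chr11:117966079-117970047 on the minus strand. Its level was 22.0, 38.4 and 31.5 CPM in sgCtrl livers and 38.5, 71.3 and 40.9 CPM in sgPrdx2 livers. Every sgPrdx2 liver was above every sgCtrl liver, but livers 7.1 and 1.1, at 38.4 and 38.5 CPM, were all but equal. Liver 1.3 was far above the others and carried much of the difference between the means of 30.6 ± 8.22 and 50.3 ± 18.3 CPM (SD, n = 3 each). Socs3 thus had a log2 fold change of 0.71 (SE 0.28, 95% interval 0.06 to 1.37, adjusted p = 0.172), that is 1.64-fold, and it was 0.39 without liver 1.3. Reads on Socs3 per read on Stat3 numbered 0.241, 0.334 and 0.299 in sgCtrl and 0.329, 0.631 and 0.608 in sgPrdx2 livers, so that liver 1.1 fell among the sgCtrl livers (difference in log2 ratio 0.80, exact permutation p = 0.2, adjusted p = 0.267).

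The promoter windows of the 10 genes, which run from 250 bases before to 50 bases after a RefSeq start site (GRCm38.p6, 12 windows, since Lifr and Pim1 have 2 each), were searched on both strands for the STAT motif TTCNNNGAA. Socs3 had the only match among them, TTCTTAGAA, beginning 154 bases before the start. Of all 32817 windows, 2722 held the motif (8.29%), and 377 held its stricter form TTCCNGGAA (1.15%), which is contained in the first motif and was found in none of the 12 windows. The Socs3 window is shown because it holds the match, in capitals, and the Osmr window because that gene had the smallest p and its window has no match. Both are on the minus strand and read 5′ to 3′, the first from chr11:117969317-117969616 and the second from chr15:6874264-6874563. Both lie inside the gene as GENCODE annotates it, with 5′ ends at 117970047 for Socs3 and 6874969 for Osmr. The 2 Lifr windows, from 7129322 and 7140292, also lie inside the gene, which begins at 7090614. Other start sites of these genes were not searched, so the matches describe the windows only. A match is a run of letters and not a measured binding site.
Socs3: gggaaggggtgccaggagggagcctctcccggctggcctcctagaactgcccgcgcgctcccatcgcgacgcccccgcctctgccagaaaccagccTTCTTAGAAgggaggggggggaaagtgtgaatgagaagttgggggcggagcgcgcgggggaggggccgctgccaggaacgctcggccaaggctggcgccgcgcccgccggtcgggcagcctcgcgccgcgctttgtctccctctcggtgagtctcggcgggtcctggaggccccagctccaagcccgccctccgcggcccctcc
Osmr: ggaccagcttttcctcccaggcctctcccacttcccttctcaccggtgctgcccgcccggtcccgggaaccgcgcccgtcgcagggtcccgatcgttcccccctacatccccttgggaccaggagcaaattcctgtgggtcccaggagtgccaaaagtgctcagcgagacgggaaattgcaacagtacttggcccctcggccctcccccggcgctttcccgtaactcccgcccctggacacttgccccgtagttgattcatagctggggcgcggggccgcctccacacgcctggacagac

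Socs1, the related inhibitor that is induced mainly by interferons, lies at chr16:10782240-10785536 on the minus strand and was by far the least abundant of the 10. It had 1.58, 1.47 and 1.81 CPM in sgCtrl and 1.21, 1.35 and 1.60 CPM in sgPrdx2 livers, from 52 to 95 counts per liver. The groups overlapped, and the log2 fold change was -0.23 (SE 0.22, 95% interval -0.74 to 0.28, adjusted p = 0.548). Its ratio to Jak1 differed by 0.11 on the log2 scale (exact permutation p = 0.9, adjusted p = 1).

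Pim1, a serine/threonine kinase and STAT3 target that promotes cell survival, lies at chr17:29490753-29496112 on the plus strand. It had 11.3, 18.3 and 16.8 CPM in sgCtrl and 15.2, 13.1 and 8.17 CPM in sgPrdx2 livers, and the groups overlapped through sgCtrl liver 5.1, the lowest of its group. The difference, a log2 fold change of -0.35 (SE 0.26, 95% interval -0.95 to 0.26, adjusted p = 0.441), was -0.12 without liver 3.2. The antisense gene Gm26885 covers 14.5% of its exon bases, and without a stated strand setting reads from the 2 genes cannot be told apart.

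Bcl3, a nuclear IκB protein and STAT3 target that modulates NF-κB dimers, lies at chr7:19808462-19822770 on the minus strand. Its level was 41.3, 43.1 and 50.6 CPM in sgCtrl and 36.2, 39.8 and 49.5 CPM in sgPrdx2 livers. The groups overlapped, and the log2 fold change was -0.10 (SE 0.15, 95% interval -0.46 to 0.25, adjusted p = 0.700). The antisense gene Gm16175 covers 6.51% of its exon bases. Neither target differed from Stat3 in its ratio beyond the overlap of the groups, at differences in log2 ratio of -0.26 for Pim1 (exact permutation p = 0.2, adjusted p = 0.267) and -0.01 for Bcl3 (exact permutation p = 1, adjusted p = 1).

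The 4 genes induced through STAT3 or interferon signalling had estimates of either sign, and none was called by edgeR: Socs3 lay above 0, and Socs1, Pim1 and Bcl3 lay below 0 with intervals that include 0. With the housekeeping scaling, which lowered all genes alike, the log2 fold changes were -1.05 for Osmr (adjusted p = 0.05004, just short of the threshold), -0.78 for Il6st, -0.68 for Jak1, -0.68 for Pim1, -0.60 for Socs1, -0.49 for Bcl3, -0.40 for Stat3, -0.34 for Il6ra, 0.01 for Lifr and 0.37 for Socs3.

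**Figure D3:**
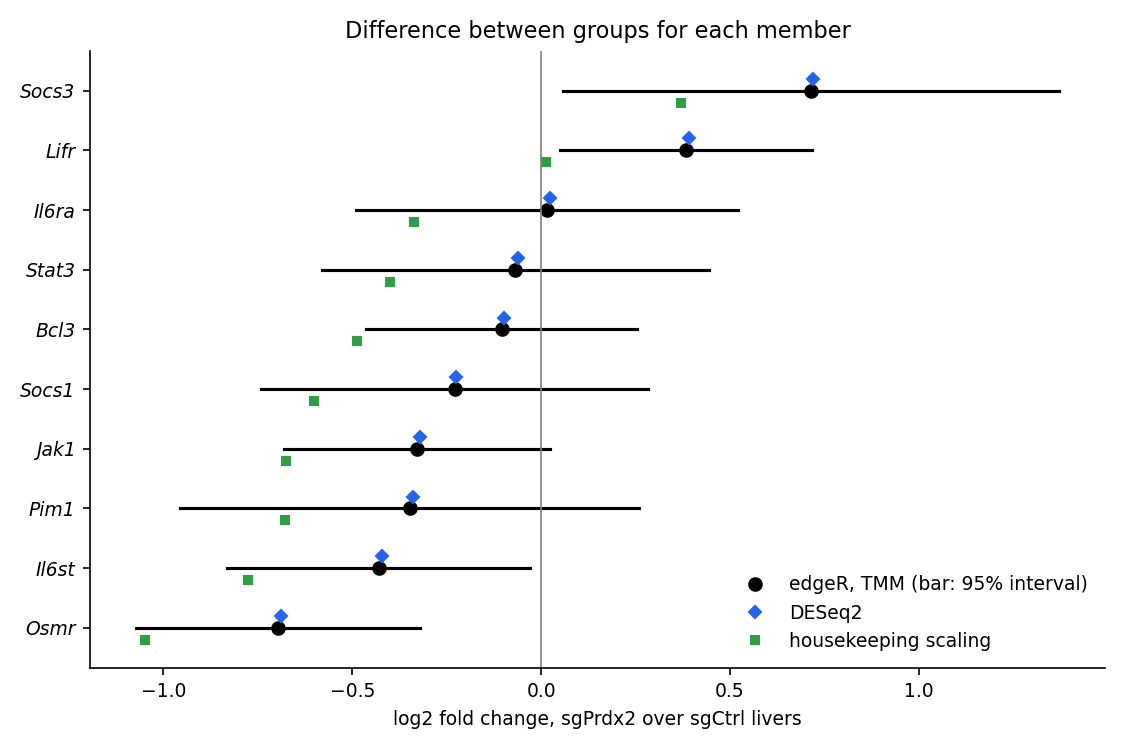
Log2 fold change of the 10 genes in sgPrdx2 over sgCtrl livers, ordered by value, with black points and bars for edgeR's estimate and its 95% interval, blue diamonds for DESeq2 and green squares for scaling to 6 housekeeping genes. The bars of Osmr (-1.07 to -0.32) and Il6st (-0.83 to -0.03) lie below 0, those of Lifr (0.05 to 0.72) and Socs3 (0.06 to 1.37) above 0, and the housekeeping scaling moves each gene to the left.

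Levels between genes were compared per kilobase of annotated exon. In sgCtrl livers the order was Jak1 (19.8 ± 1.20 CPM per kb), Bcl3 (18.2 ± 1.99), Il6st (15.0 ± 0.901), Stat3 (10.9 ± 1.24), Socs3 (10.6 ± 2.84), Lifr (7.44 ± 0.717), Pim1 (4.60 ± 1.11), Il6ra (3.26 ± 0.816), Osmr (2.05 ± 0.289) and Socs1 (0.556 ± 0.0596), each the mean and SD of 3 livers. The ranges of Jak1 and Bcl3, of Stat3 and Socs3, of Socs3 and Lifr and of Pim1 and Il6ra overlapped, and those of the other neighbours did not. Within a liver, Socs3 was above Lifr in 3 of 3 sgCtrl livers, while each of the other 3 overlapping pairs had this order in 2 of 3. Il6st was thus more abundant than each of the 3 subunits it pairs with, and Osmr was the scarcest of the 4 receptor subunits.

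In sgPrdx2 livers the order of the means began with Socs3 (17.4 ± 6.32 CPM per kb), Bcl3 (16.9 ± 2.79) and Jak1 (15.8 ± 2.40), whose neighbouring ranges overlapped. Within a liver, Socs3 was above Bcl3 in 1 of 3 sgPrdx2 livers (1.3), and Bcl3 was above Jak1 in 1 of 3. Il6st (11.1 ± 2.22), Stat3 (10.4 ± 2.91) and Lifr (9.70 ± 1.13) followed, also with overlap between neighbours. Pim1 (3.61 ± 1.07) and Il6ra (3.29 ± 0.726) overlapped as they did in sgCtrl livers, and Osmr (1.26 ± 0.194) and Socs1 (0.476 ± 0.0678) again closed the order without overlap. The lengths join all annotated exons of a gene, so that a gene with long rarely used exons appears lower than it is.

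**Figure D4:**
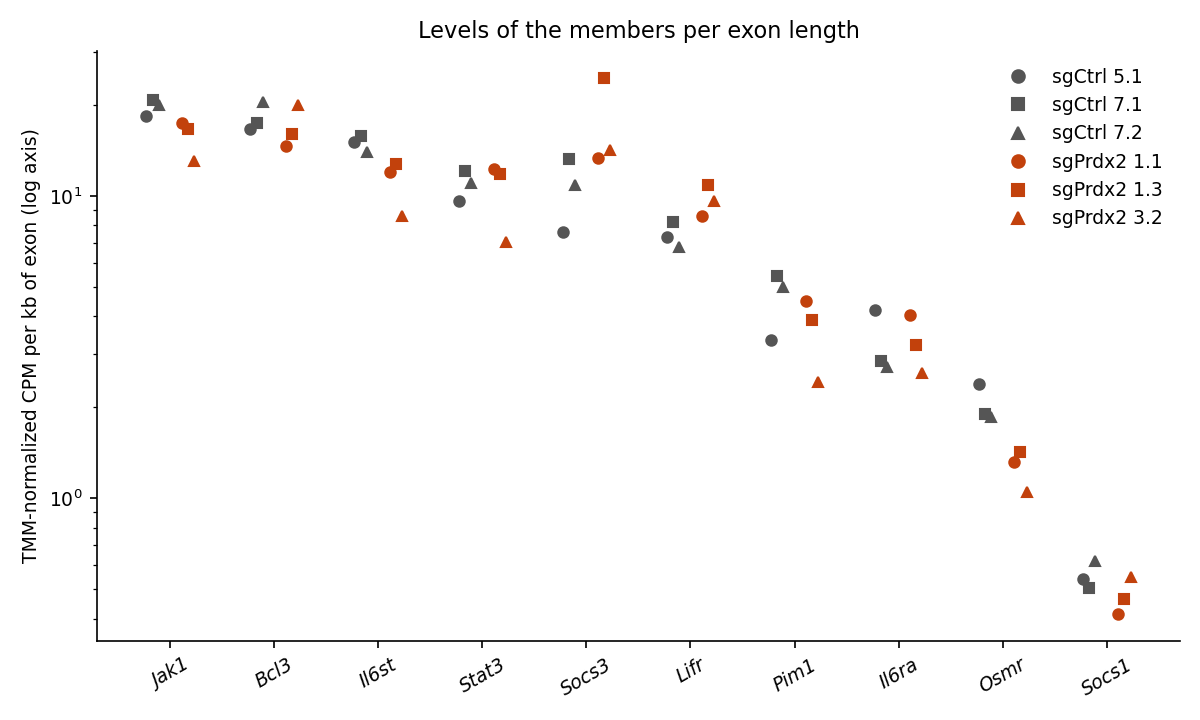
TMM-normalized CPM per kilobase of exon (log axis) of the 10 genes in each liver, ordered by the sgCtrl mean, with grey symbols for sgCtrl and orange symbols for sgPrdx2 livers. The means run from 19.8 for Jak1 to 0.556 for Socs1 in sgCtrl livers. By its mean, Socs3 is in place 5 in sgCtrl and in place 1 in sgPrdx2 livers, but it is above Bcl3 in only 1 of 3 sgPrdx2 livers (1.3).

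Of 9 cytokines of the family, 6 were abundant enough for the test, and edgeR called 0, with 4 at an unadjusted p of 0.05 and 2 called by DESeq2 (24.9% and 13.4% of all genes). Osm, the ligand of Osmr, had between 1.07 and 1.32 CPM in the 3 sgCtrl and between 0.638 and 0.721 CPM in the 3 sgPrdx2 livers (log2 fold change -0.80, SE 0.24, adjusted p = 0.101). Lif, the ligand of Lifr, stood at -1.01 on the log2 scale (SE 0.35, adjusted p = 0.136) with overlap between the groups. Ctf1, or cardiotrophin 1, which also signals through Lifr, was higher in every sgPrdx2 liver, at 4.82, 5.38 and 5.71 against 6.95, 7.66 and 8.91 CPM (log2 fold change 0.56, SE 0.16, adjusted p = 0.0923). Clcf1, a ligand of the ciliary neurotrophic factor receptor, was the most abundant of the family in CPM and was lower in every sgPrdx2 liver (log2 fold change -0.48, adjusted p = 0.135).

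Il6 was barely detected, with 6, 5 and 8 counts in sgCtrl and 2, 1 and 1 counts in sgPrdx2 livers, and it was not tested. Il11 (2 to 18 counts) and Cntf were also below the filter. For Il27 and Ebi3, the subunits of interleukin-27, the log2 fold changes were 0.07 (adjusted p = 0.941) and -0.15 (adjusted p = 0.678). The list's median log2 fold change was -0.31.

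The other groups of the pathway gave 0 calls with edgeR, and their further counts are to be read beside the 24.9% of all genes at an unadjusted p of 0.05 and the 13.4% called by DESeq2. Among 6 tested receptors and receptor-shedding enzymes (3 at an unadjusted p of 0.05, 2 called by DESeq2, median log2 fold change -0.23), the smallest p belonged to the proteases that cut receptors such as IL-6R from the cell surface. Adam10 (log2 fold change -0.48, adjusted p = 0.0638) and Adam17 (-0.60, adjusted p = 0.0813) were lower in all 3 sgPrdx2 livers. Of 9 other JAK and STAT genes, 0 had an unadjusted p of 0.05 and DESeq2 called 0 (median -0.09), and those with the smallest p were Jak2 at -0.32 (adjusted p = 0.223) and Stat2 at -0.36 (adjusted p = 0.269). Of 14 other inhibitors, 3 had an unadjusted p of 0.05 and DESeq2 called 1 (median -0.17), with the phosphatases Ptpn1 at -0.44 (adjusted p = 0.107) and Ptpn6 at -0.38 (adjusted p = 0.113) first.

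Targets of STAT3 were described as 2 lists. Of 23 tested acute phase genes of hepatocytes, 3 rose (13.0%, beside 1.79% of all genes called higher) and 0 fell, with a median log2 fold change of 0.61 and 19 above 0. They were Saa4 (1.07, SE 0.23), which is known as the constitutive serum amyloid A and is not itself induced in the acute phase, Fgb, the fibrinogen beta chain (0.83, SE 0.18), and Serpina3n, a secreted protease inhibitor (0.70, SE 0.15), each with an adjusted p of 0.0491 from edgeR's quasi-likelihood test. Fgb had 2145, 2787 and 2887 CPM in sgCtrl and 4402, 4487 and 5058 CPM in sgPrdx2 livers, without overlap. On the other side, 4 of the 23 lay below 0, and Lcn2, an iron-siderophore carrier (-0.73, adjusted p = 0.123), and Steap4, a metalloreductase (-0.55, adjusted p = 0.207), both named after their values were seen, were lower in every sgPrdx2 liver. At an unadjusted p of 0.05 (edgeR) the count was 13 of 23, beside 24.9% of all genes. Without overlap, 12 were higher and 2 lower in every sgPrdx2 liver, beside 16.7% and 17.5% of all genes. The count of 3 was 0 when liver 5.1, 7.2, 1.1 or 1.3 was left out, as was the count over all genes. The acute phase count was 1 without liver 3.2, 4 without liver 7.1 and 10 with DESeq2, which called 13.4% of all genes. Hepatocyte markers had a median log2 fold change of 1.06, with 12 of 12 above 0, and the part of this in the acute phase genes was not tested.

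Of 22 tested general STAT3 targets, which many cell types express, edgeR called 0, with 5 at an unadjusted p of 0.05 and 3 called by DESeq2, shares close to the 24.9% and 13.4% of all genes. Their median log2 fold change was -0.15, with 14 below 0. Those with the smallest p lay on opposite sides: Fgl1, a fibrinogen-like protein secreted by hepatocytes, stood at 0.51 on the log2 scale (adjusted p = 0.0878), and Tnfaip3, which encodes the NF-κB inhibitor A20, had -0.66 (adjusted p = 0.101).

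Summed markers of several other cell types were lower in every sgPrdx2 liver, as were Osmr, Il6st and Jak1. Their counts at an unadjusted p of 0.05 and with DESeq2 stand beside the same 24.9% and 13.4% of all genes. Those called lower by edgeR stand beside 1.54%. Stellate cell and fibroblast markers summed to 2441 to 2802 CPM in sgCtrl and 1759 to 1869 CPM in sgPrdx2 livers (0 of 12 called, 8 at an unadjusted p of 0.05, 5 called by DESeq2), and cholangiocyte markers to 1842 to 2075 and 1360 to 1582 CPM (0 of 10 called, 5 at an unadjusted p of 0.05, 1 called by DESeq2). Endothelial markers summed to 630 to 632 and 489 to 571 CPM (1 of 12 called lower, 5 at an unadjusted p of 0.05, 3 called by DESeq2). Neutrophil markers (0 of 7 tested called, 4 at an unadjusted p of 0.05, 0 called by DESeq2) summed to 20.8 to 31.8 CPM over the 6 livers. Of those 4, 3 were lower and 1 was higher in every sgPrdx2 liver. Lymphocyte markers (1 of 12 called lower, 1 at an unadjusted p of 0.05, 1 called by DESeq2) summed to 38.5 to 56.2 CPM. The part of these differences in the values of the receptor and feedback genes was not tested.

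**Figure D5:**
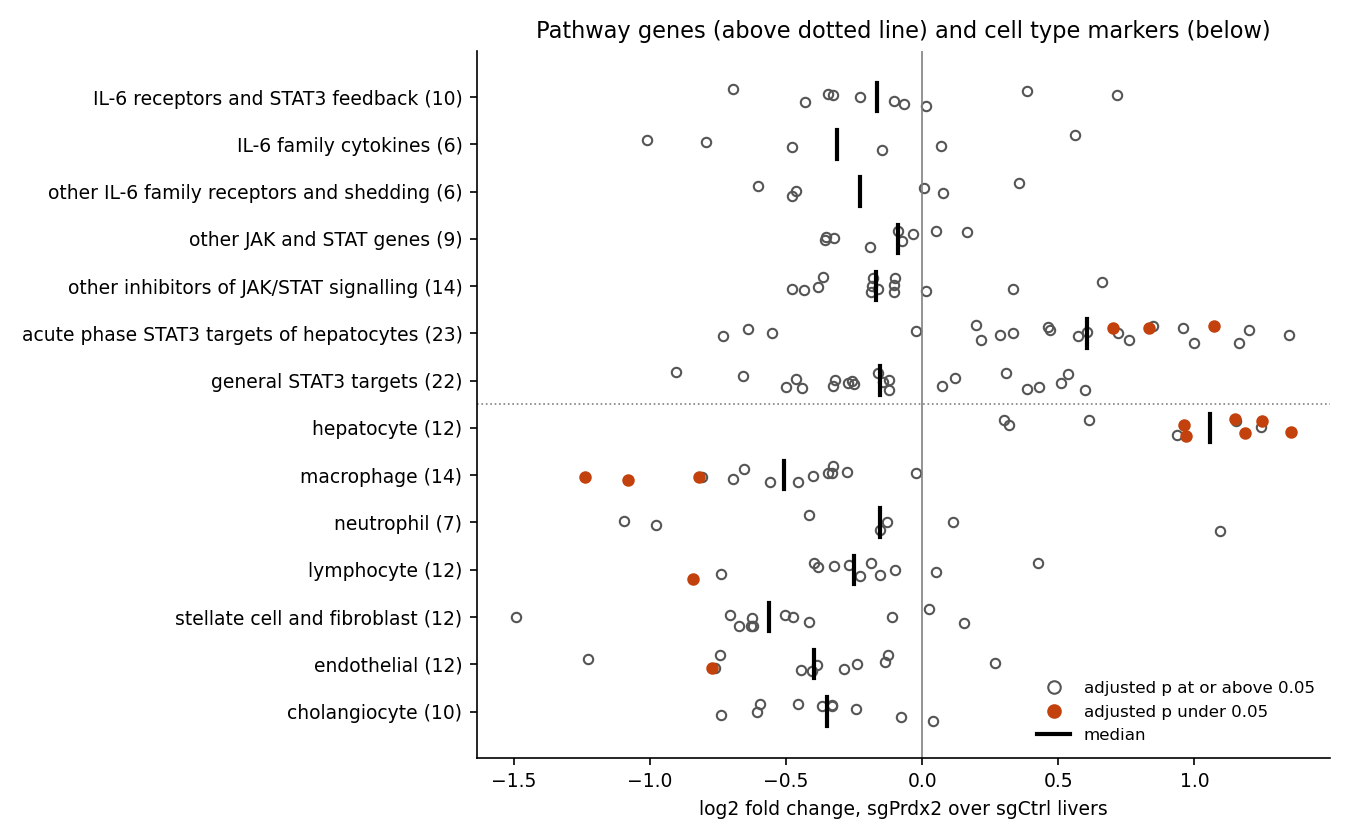
Log2 fold change in sgPrdx2 over sgCtrl livers of each tested gene (points, spread vertically at random) of the 10 genes, 6 pathway lists and 7 marker lists, with filled orange points at an adjusted p under 0.05, open points otherwise and black lines at the median. The medians of the pathway lists lie between -0.31 and 0.61, that of hepatocyte markers at 1.06 and that of macrophage markers at -0.51.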

How the data were processed

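The authors deposited raw counts of reads per gene for each liver, not normalized. The submitters' processing notes name HISAT2, HTSeq, DESeq2 and GRCm38, and versions, annotation and strandedness are not given in the sources used here. A second deposited table, of the authors' DESeq2 comparison (mean level, log2 fold change, standard error, Wald statistic and p-values), was not used. Groups were taken from the labels.

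The analysis used edgeR 4.0.16 (R 4.3.3): filterByExpr (minimum count 10), TMM, and the quasi-likelihood test of 3 sgPrdx2 against 3 sgCtrl livers without covariate. The test was tested on simulated data with changes larger than those of the 10 genes, which does not show how it performs for smaller ones. P-values were Benjamini-Hochberg adjusted over 17032 genes and called under 0.05. Intervals are 95%. The biological coefficient of variation was 0.213. Ratios within a liver (0.5 added to each count) were compared by two-sided exact permutation tests. Alternatives were DESeq2 1.42.0, other scalings, filters and thresholds, and leaving out each liver. Between any 2 livers, counts differed beyond sampling noise (chi-square per degree of freedom at least 35.3).

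The rule for named genes was the 10 members, Prdx2, all IL-6 family cytokines, called genes (up to 4) or the 2 smallest p of each pathway list, and the 3 profiles most like the member with the smallest p. Members and lists were chosen with earlier results of these data known. Exon lengths, coordinates and overlaps are from GENCODE vM21 (GRCm38), which need not be the annotation behind the counts, and promoters are from RefSeq.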

Additional observations from a re-analysis of the deposited data

How the results depend on the processing

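Over 12 alternatives per gene, 8 of the 10 genes kept the sign of their log2 fold change, and Il6ra and Stat3 did not. Scaling to 6 housekeeping genes moved the median of all genes from -0.02 to -0.38 and that of the 10 genes to -0.55, so that relative to all genes it went from -0.15 to -0.16, and it reversed Il6ra (-0.34). No pathway or marker list changed the sign of its median with another scaling. The housekeeping scaling gave 989 calls over all genes, 2 among other inhibitors and 1 each among other receptors, acute phase genes and general targets. DESeq2 gave 2048 calls over all genes, 1 among the 10 genes, 2 each among cytokines and other receptors, 1 among other inhibitors, 10 among acute phase genes and 3 among general targets. Without a filter on low counts there were 1128 calls, 1 among the 10 genes and 6 among acute phase genes, and at an adjusted p of 0.1 edgeR called 1 of the 10 genes. The causes were not tested.

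Leaving out each liver in turn gave 0 to 619 calls over all genes: 0 without sgCtrl liver 5.1 or 7.2 or sgPrdx2 liver 1.1 or 1.3, 394 without 7.1 and 619 without 3.2, with 3114 to 4436 genes at an unadjusted p of 0.05. The 10 genes gave 0 calls each time, with 1 to 3 at an unadjusted p of 0.05. The counts ranged from 0 to 4 for acute phase genes and from 0 to 1 for other receptors and for general targets. The log2 fold change ranged from -0.16 to 0.24 for Il6ra and from -0.21 to 0.16 for Stat3, with reversals at -0.07, -0.10 and -0.16 for Il6ra and 0.01 and 0.16 for Stat3, and the difference in log2 ratio from -0.13 to 0.29 for Socs1 over Jak1 and from -0.39 to 0.24 for Bcl3 over Stat3. No paired analysis was possible because the groups share no replicate number. The 3 livers per group and, for Socs1 and Il6, low counts limit what can be detected.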

Other observations

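Liver 1.3, in which Socs3 was highest at 71.3 CPM, was also the liver with the highest levels of 3 other genes, which were chosen after their values were seen. Cish, another feedback inhibitor of the SOCS family, had 68.8 CPM in liver 1.3 and between 14.4 and 23.9 CPM in the other 5 livers. Fos, an immediate early gene, had 69.0 CPM in liver 1.3 and between 11.7 and 40.6 CPM in the others, and Junb had 165 CPM against 59.2 to 120 CPM. None of the 3 separated the groups, with log2 fold changes of 0.66 (SE 0.51, adjusted p = 0.448) for Cish, 0.31 (SE 0.62, adjusted p = 0.780) for Fos and 0.43 (SE 0.31, adjusted p = 0.421) for Junb.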
